A study of Homo sapiens with 4 samples.

Results

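The genes described here carry out antigen processing and presentation, and they were chosen by name: 36 genes of the MHC class I and class II pathways, out of 16813 genes listed in at least 1 library. They were compared between PC9 cells and PC9OR cells. PC9 is an established EGFR-mutant lung adenocarcinoma line, labelled as control, and PC9OR is its derivative with resistance to the EGFR inhibitor osimertinib. Both carry the genotype label WT, grew in RPMI medium with serum, and were sequenced as 2 biological replicates each, 4 libraries in all. PC9OR is a single derived line, so resistance and any other difference between these cultures cannot be told apart, and p-values measure only the spread between these libraries.

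Class I molecules show peptides from inside the cell to CD8+ T cells. Proteasomes cut proteins into peptides, the TAP transporter moves the peptides into the endoplasmic reticulum, aminopeptidases trim them, and a loading complex fits them to a heavy chain bound to beta-2-microglobulin. Interferon signalling raises many of these genes through interferon response elements and through the regulators IRF1 and NLRC5. Class II molecules show peptides taken up from outside to CD4+ T cells, mainly on professional antigen-presenting cells, and their transcription depends on CIITA. In lung cancer the class I pathway decides which tumour peptides T cells can see.

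The expected counts, which are estimated read numbers, summed to between 23201307 and 32203998 per library, and 3 counts corresponded to between 0.0936 and 0.128 CPM (counts scaled to the library size after TMM normalization). The biological coefficient of variation was 0.241 between the PC9 libraries and 0.104 between the PC9OR libraries, and the difference between the PC9 libraries followed transcript length (rank correlation -0.457 across 11429 genes, which are not independent replicates). Between PC9OR and PC9 cells the rank correlation with length was -0.402. For this reason values with offsets for transcript length are given where they change a result. All 7 epithelial markers reached at least 1 FPKM (the deposited level per transcript length and library size) in every library. The lung lineage markers NKX2-1, NAPSA, SFTPB and SFTPC summed to at most 0.21 FPKM in any library, so the labelled tissue is not visible in these 4 genes.

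Of the 36 genes, 27 passed the filter on low counts and 9 did not. At an adjusted p under 0.05 (quasi-likelihood test of edgeR, adjusted by Benjamini-Hochberg over 13148 genes), 15 of the 27 were lower in PC9OR cells, 1 was higher and 11 were not called. Over all genes tested, 20.8% were lower and 15.6% were higher by the same rule. With offsets for transcript length 13 of the 27 were lower and 1 was higher, beside 18.3% lower and 19.8% higher of all genes tested, so the larger share over all genes turned from lower to higher. The median log2 fold change was -0.56 over the 27 genes and 0.01 over all genes tested (-0.42 and 0.07 with the offsets). More than 2-fold lower were 7 of the 27 (HLA-B, TAPBP, TAPBPL, PSMB8, NLRC5, RFXAP and CTSS) and more than 2-fold higher were 0, beside 11.6% and 6.13% of all genes tested. HLA-B is among these although its PC9OR libraries held at most 2.82 counts. With at least 10 counts required in every library 13 genes were lower, 6 of them more than 2-fold. HLA-B was then not tested, and CANX, with high counts, missed the threshold (edgeR adjusted p = 0.0609). At an adjusted p under 0.001 together with a change over 2-fold, edgeR called 0 of the 27 and 0% of all genes, while 18 of the 27 had an unadjusted p under 0.05 and DESeq2's Wald test called 5 of them at that threshold. In 17 of the 27 both PC9OR libraries lay below both PC9 libraries, in 2 they lay above, and in 8 the lines overlapped, beside 38.2% below and 39.6% above over all genes tested. Without PC9OR replicate 1 the count of lower genes was 4 (TAPBP, TAPBPL, PSMB8 and NLRC5), and without PC9OR replicate 2 it was 4 (TAPBP, TAPBPL, PSMB8 and HLA-B), all of them more than 2-fold lower. Without PC9 replicate 2, 5 genes were higher (RFXANK, PSMB10, B2M, PSME1 and PSME2), 2 of them more than 2-fold, and without PC9OR replicate 2 the single higher gene was more than 2-fold higher.

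**Figure D1:**
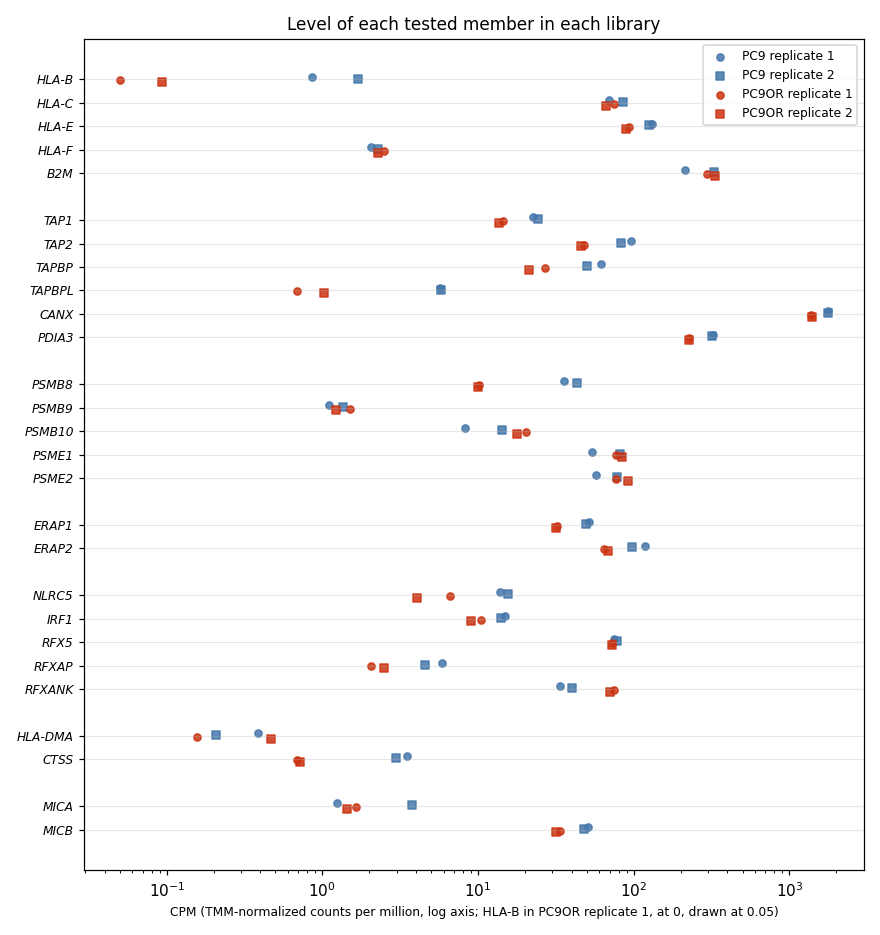
Level of the 27 tested antigen presentation genes in each library, in CPM on a log axis, with circles for replicate 1 and squares for replicate 2 of PC9 (blue) and PC9OR (red) cells. The PC9OR libraries lie to the left for all 6 genes of peptide transport and loading and for PSMB8, and their range overlaps that of the PC9 libraries for HLA-C, HLA-F, B2M and PSMB9.

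Interferon response elements stand before several of these genes, and short stretches around them are shown first because genes that fell and genes that were not called both carry them. The 250 bases before each start were taken from the RefSeq promoter table (GRCh38.p14), which held 45 promoters of 30 of the 36 genes, and the stretches were placed on GRCh37 by exact match. Capitals mark the letters GAAANNGAA on either strand, and adjoining capitals are overlapping matches. The first 4 genes were lower in PC9OR cells and the last 4 were not called.

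TAP1, chr6:32821593-32821622, minus strand: cggccgctTTCGATTTCGCTTTCccctaaa
TAP2, chr6:32806556-32806585, minus strand: gctggggaagcGAAAGCGAAagctgcccga
TAPBP, chr6:33281856-33281885, minus strand: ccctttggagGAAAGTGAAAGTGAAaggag
ERAP2, chr5:96212163-96212192, plus strand: atcttagaacaGAAAGTGAAagcaaaagta
B2M, chr15:45003563-45003592, plus strand: gactctaaGAAAAGGAAACTGAAaacggga
HLA-F, chr6:29691045-29691074, plus strand: ctccccagagtTTCTCTTTCtctcccaacc
PSMB10, chr16:67970756-67970785, minus strand: agggtaaaggcGAAAGCGAAagcaggaagt
PSME2, chr14:24615829-24615858, minus strand: acctggggagtGAAAGCGAAagcccgggcg

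TAP1, TAP2, PSMB10 and PSME2 share the match GAAAGCGAA, in TAP1 on the other strand, and of these genes TAP1 and TAP2 were lower and PSMB10 and PSME2 were not called. Of the promoters of these genes, 12 of 45 held the element, against 6.88% of 35116 RefSeq promoters. Of the 15 genes that were lower, 11 had a promoter in the RefSeq promoter table, and HLA-E, PDIA3, NLRC5 and CTSS had none. The element stood in 4 of the 19 promoters of genes that were lower (4 of 11 genes) and in 5 of the 13 promoters of genes that were not called. The other motifs searched on both strands were TTCNNNGAA (the gamma-activated site, in 4 of 45 promoters and 6.57% of all), CCAAT (the Y box core, 21 of 45 and 32%), TGACG (the X2 box core, 16 of 45 and 21.2%) and GGGANTNCC (a kappaB site, 7 of 45 and 3.75%). A kappaB match stood in 4 of these 11 lower genes, namely TAPBP, TAPBPL, PSMB8 and HLA-B, which passed the filter only through its PC9 libraries. The kappaB match also stood in IRF1, which was not called, and in HLA-DPA1 and HLA-DQA1, which were below the filter. A match is a description of letters and shows no binding.

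**Figure D2:**
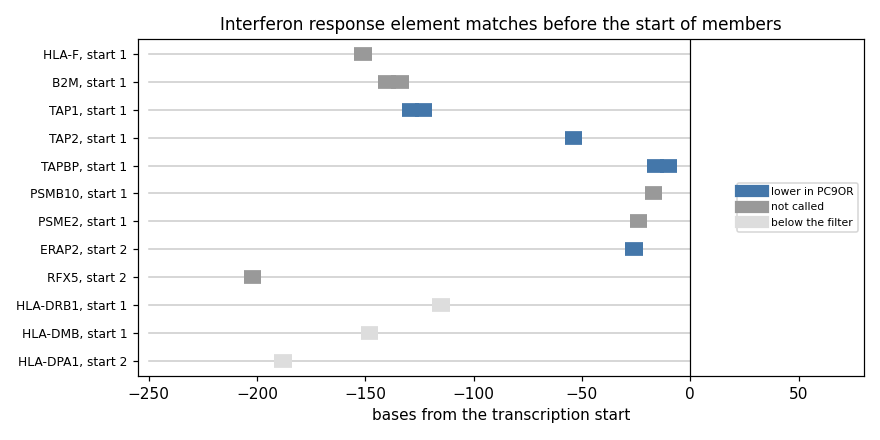
Position of each match to the interferon response element in the 250 bases before the start of the antigen presentation genes, in bases from the start, with blue for genes lower in PC9OR cells, grey for genes not called and light grey for genes below the filter. The matches lie between -206 and -6, and blue and grey ones stand both near the start and far from it.

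All 6 genes of peptide transport and loading (TAP1, TAP2, TAPBP, TAPBPL, CANX and PDIA3) were lower in PC9OR cells, beside 20.8% of all genes tested. Their median log2 fold change was -0.82, beside 0.01 over all genes tested. With offsets for transcript length CANX was no longer called (edgeR adjusted p = 0.73). TAP1 and TAP2 form the transporter that carries peptides into the endoplasmic reticulum. TAP1 (chromosome 6, 32812986 to 32821593) reached 22.4 and 24.1 CPM in the PC9 replicates and 14.5 and 13.6 CPM in the PC9OR replicates. TAP2 (chromosome 6, 32789610 to 32806516) reached 95.5 and 82.9 CPM in PC9 and 48.1 and 46.0 CPM in PC9OR cells. For both subunits the lines did not overlap. The log2 fold change was -0.73 for TAP1 (standard error 0.141, edgeR adjusted p = 0.0191) and -0.92 for TAP2 (standard error 0.125, edgeR adjusted p = 0.00952). Of the 50-base words of TAP2 transcripts, 30.3% also occur in transcripts of another gene in the GENCODE annotation. The deposited counts are by Entrez gene, and whether reads of TAP2 were split in them was not tested.

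TAPBP encodes tapasin, which bridges the transporter and the empty class I molecule. It reached 61.2 and 49.9 CPM in PC9 and 27.1 and 21.3 CPM in PC9OR cells, and the highest PC9OR library stayed below the lowest PC9 library. The log2 fold change was -1.20 (standard error 0.179, edgeR adjusted p = 0.0113). TAPBPL, the tapasin-related peptide editor TAPBPR, showed the largest fall of the group. It reached 5.67 and 5.82 CPM in PC9 and 0.687 and 1.03 CPM in PC9OR cells, a level 6.66-fold lower (log2 fold change -2.74, standard error 0.337, edgeR adjusted p = 0.00813). TAPBPL lies on chromosome 12 from 6560856 to 6575683, away from the MHC, and the 30 tested genes nearest to it had a median log2 fold change of 0.18. None of its 50-base words is shared (0%), but 4281 bases of it overlap VAMP1 on the opposite strand.

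CANX and PDIA3 are chaperones of the endoplasmic reticulum, with roles in the folding of many glycoproteins besides class I heavy chains. CANX, calnexin, stood at 1757 and 1772 CPM in PC9 and at 1373 and 1403 CPM in PC9OR cells. PDIA3, also called ERp57, stood at 321 and 320 CPM in PC9 and at 225 and 227 CPM in PC9OR cells. Replicates were close and the lines did not overlap for either gene. The log2 fold change was -0.35 for CANX (95% interval -0.60 to -0.09, edgeR adjusted p = 0.0493) and -0.50 for PDIA3 (standard error 0.0999, edgeR adjusted p = 0.0200). CANX was called under 6 of the 16 alternatives, and offsets for transcript length left a log2 fold change of -0.05 (edgeR adjusted p = 0.73). Of 9 other chaperones and translocon genes outside this group, 4 were also lower and 5 were not called. HSPA5, SEC61A1 and P4HB fell further than CANX and PDIA3, with log2 fold changes of -0.98, -0.87 and -0.74. Whether the falls of CANX and PDIA3 are particular to antigen loading was not tested.

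**Figure D3:**
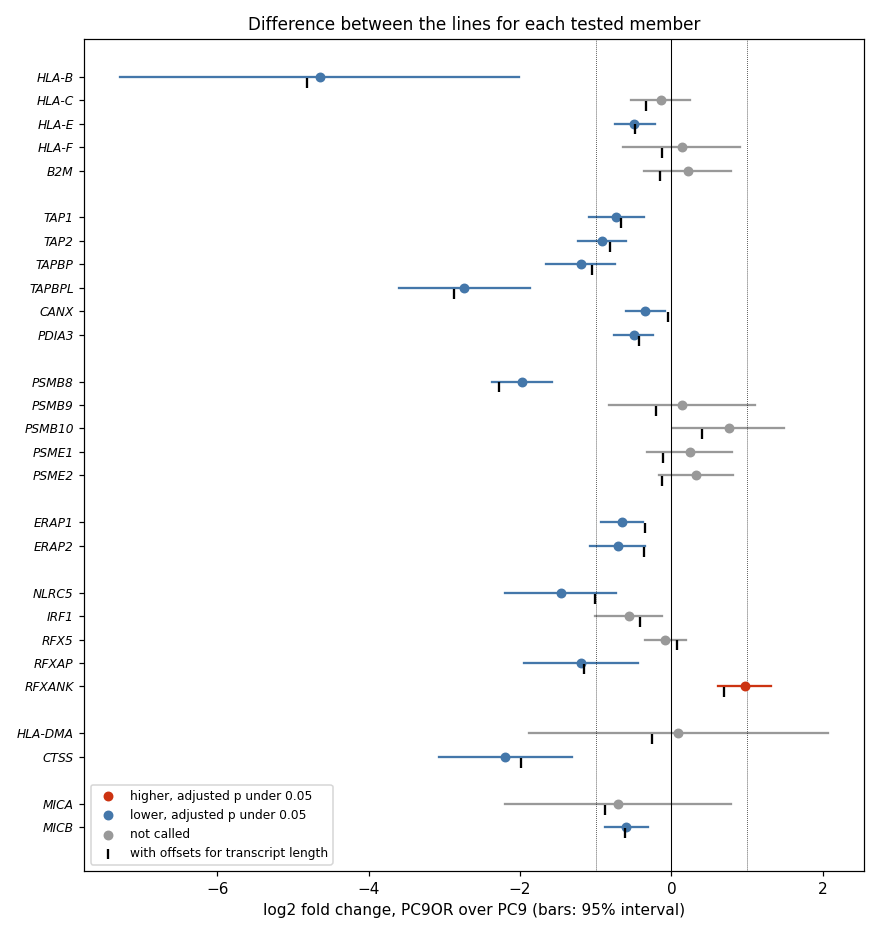
Log2 fold change of PC9OR over PC9 cells for the 27 tested antigen presentation genes, with bars for the 95% interval of the edgeR fit, black ticks for the value with offsets for transcript length, and dotted lines at 2-fold. The 15 blue genes were lower, RFXANK in red was higher, and the tick of CANX lies at -0.05.

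Among the 5 genes of the immunoproteasome and its PA28 activator, PSMB8 was called and the others were not. PSMB8, PSMB9 and PSMB10 encode the inducible catalytic subunits beta5i, beta1i and beta2i, which replace PSMB5, PSMB6 and PSMB7 in the immunoproteasome. PSMB8 (chromosome 6, 32808494 to 32812456) reached 35.7 and 43.2 CPM in PC9 and 10.1 and 9.94 CPM in PC9OR cells. Both PC9OR libraries lay far below both PC9 libraries, by 3.93-fold (log2 fold change -1.98, standard error 0.154, edgeR adjusted p = 0.00457). PSMB9 reached 1.11 and 1.35 CPM in PC9 and 1.5 and 1.22 CPM in PC9OR cells, which overlapped (log2 fold change 0.14, 95% interval -0.82 to 1.10, edgeR adjusted p = 0.785). PSMB10 reached 8.27 and 14.2 CPM in PC9 and 20.3 and 17.8 CPM in PC9OR cells. The PC9OR libraries lay above, but the test was not passed (log2 fold change 0.76, edgeR adjusted p = 0.0922). With offsets for length the log2 fold change of PSMB10 was 0.41 (edgeR adjusted p = 0.173), and with the replicate block 0.80 (0.0322). It was 0.42 without PC9 replicate 1 and 1.19 without PC9 replicate 2. Of the 50-base words of PSMB10, 45.2% occur in another gene of the GENCODE annotation.

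Set against its constitutive counterpart within each library, in FPKM, PSMB8 stood at 31.3% and 26.5% of PSMB5 in PC9 cells and at 5.58% and 5.28% in PC9OR cells, a ratio 5.3-fold lower. PSMB9 stood at 0.407% and 0.363% of PSMB6 in PC9 and at 0.311% and 0.249% in PC9OR cells. PSMB10 stood at 4.24% and 5.41% of PSMB7 in PC9 and at 7.49% and 6.13% in PC9OR cells. So the order of the lines was the same for the first 2 ratios and opposite for the third, and the lines did not overlap in any. An exact two-sided permutation test over 2 libraries against 2 gave p = 0.333 for each ratio, the smallest value it can give. PSMB8 made up 76.2% and 69.9% of the summed FPKM of the 3 inducible subunits in PC9 cells and 27.4% and 30.2% in PC9OR cells, where PSMB10 held 67.8% and 65.5%. The constitutive genes themselves were not called, with log2 fold changes of 0.40 for PSMB5 (edgeR adjusted p = 0.155), 0.59 for PSMB6 (0.0507) and 0.30 for PSMB7 (0.215).

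**Figure D4:**
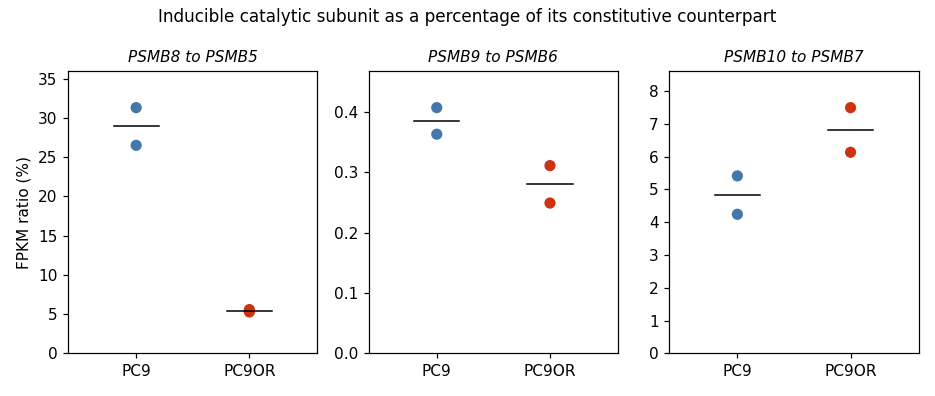
FPKM of each inducible catalytic subunit as a percentage of the constitutive subunit it replaces, for the 2 PC9 and 2 PC9OR libraries, with a line at each mean and a separate linear axis from 0 in each panel. PSMB8 to PSMB5 lies at 31.3% and 26.5% in PC9 and at 5.58% and 5.28% in PC9OR cells, while PSMB10 to PSMB7 is higher in PC9OR cells.

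PSME1 and PSME2 encode the PA28 activator that opens the proteasome gate. PSME1 reached 54.0 and 81.8 CPM in PC9 and 76.5 and 84.2 CPM in PC9OR cells. PSME2 reached 57.3 and 77.9 CPM in PC9 and 77.2 and 91.7 CPM in PC9OR cells. Both overlapped between the lines and neither was called (log2 fold changes 0.24 and 0.32, edgeR adjusted p = 0.412 and 0.229). With offsets for length the log2 fold changes were -0.11 and -0.12, and without PC9 replicate 2 they were 0.56 and 0.54 (edgeR adjusted p = 0.00924 and 0.0253).

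TAP2, PSMB8, TAP1 and PSMB9 lie together in the class II region of the MHC, on chromosome 6 from 32789610 to 32827628 of GRCh37. The first 3 were lower, by log2 fold changes of -0.92, -1.98 and -0.73, beside the value of 0.14 for PSMB9, and the 30 tested genes nearest to PSMB8 had a median of 0.12. Annotated TAP1 and PSMB9 overlap by 8608 bases on opposite strands. The library kit keeps strand, but the strand setting of the counting is not given in the sources used here. By place, 7 of the 12 tested genes on chromosome 6 were lower (58.3%, with the low-count gene HLA-B among them) and 0 were higher. Of the 15 tested genes on other chromosomes, 8 were lower (53.3%) and 1 was higher (6.67%). The shares lower were thus close in both places, beside 20.8% lower and 15.6% higher of all genes tested.

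ERAP1 and ERAP2, the aminopeptidases of the endoplasmic reticulum that trim peptides to class I length, were both lower. ERAP1 reached 51.6 and 49.4 CPM in PC9 and 32.3 and 31.9 CPM in PC9OR cells. ERAP2 reached 119 and 97.0 CPM in PC9 and 64.3 and 68.0 CPM in PC9OR cells. The lines did not overlap for either (log2 fold change -0.65 for ERAP1, standard error 0.108, edgeR adjusted p = 0.0136; -0.71 for ERAP2, standard error 0.141, edgeR adjusted p = 0.0202). Both have long transcripts, and with offsets for length ERAP1 had a log2 fold change of -0.35 (edgeR adjusted p = 0.0553) and ERAP2 of -0.36 (0.0459).

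Of the class I chains and B2M, 2 of 5 tested genes were lower, HLA-E and HLA-B, and the median log2 fold change was -0.14. This count is too small to set against the 20.8% of all genes tested. HLA-B passed the filter on low counts only through its PC9 libraries, so its call adds no support to the count. HLA-C, a classical heavy chain, reached 69.6 and 85.9 CPM in PC9 and 74.4 and 66.4 CPM in PC9OR cells, with a log2 fold change of -0.14 (95% interval -0.53 to 0.24, edgeR adjusted p = 0.472). HLA-E, which presents signal peptides of other class I chains to NKG2A on natural killer cells, reached 130.4 and 125 CPM in PC9 and 93.4 and 88.8 CPM in PC9OR cells. HLA-E was lower without overlap (log2 fold change -0.49, standard error 0.104, edgeR adjusted p = 0.0236). HLA-F reached 2.05 and 2.29 CPM in PC9 and 2.50 and 2.28 CPM in PC9OR cells and was not called (edgeR adjusted p = 0.737). HLA-G, which is known from the placenta, was at 0 counts in every library.

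HLA-B, another classical heavy chain, was listed at very low counts. The expected counts were 19.93 and 49.02 in the PC9 replicates and 0 and 2.82 in the PC9OR replicates. Both PC9OR libraries were at or below the 3 counts taken as the floor, so HLA-B passed the filter only through the PC9 libraries. The rounded totals of 69 and 3 counts give a ratio of 28.2 between PC9 and PC9OR cells, with an exact 95% interval of 9.24 to 140 that covers counting error only (edgeR log2 fold change -4.65, standard error 1.03, adjusted p = 0.0258). HLA genes differ between people in many bases, and how well the HLA-B alleles in these lines match the reference was not tested. Of the 50-base words of HLA-B, 44.4% occur in other annotated genes, beside 6.32% of those of HLA-C. The annotated span of HLA-B overlaps the pseudogene DHFRP2 by 6203 bases on the same strand, and which genes hold the shared words was not examined. The log2 fold change of HLA-B was -4.08 without PC9 replicate 2 (edgeR adjusted p = 0.0521), -3.70 without PC9OR replicate 1 (0.0724) and -8.17 without PC9OR replicate 2 (0.0187), where the remaining PC9OR library was at 0, so the fitted value sets no size.

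B2M, the light chain shared by all class I molecules, reached 214 and 329.9 CPM in PC9 and 297 and 334 CPM in PC9OR cells. The lines overlapped (log2 fold change 0.22, 95% interval -0.36 to 0.79, edgeR adjusted p = 0.476), and the log2 fold change was -0.15 with offsets for length and 0.55 without PC9 replicate 2 (edgeR adjusted p = 0.00933). In FPKM, B2M stood at 2.46 and 3.47 times the sum of HLA-B, HLA-C, HLA-E and HLA-F in PC9 cells and at 3.91 and 4.77 times that sum in PC9OR cells. That sum was 71.5 and 77.0 FPKM in PC9 and 62.2 and 55.9 FPKM in PC9OR cells. The ratio was not corrected for the trend with length, and B2M (987 bases) is shorter than HLA-C (1586) and HLA-E (2662). With the offsets the log2 fold changes of HLA-C and HLA-E were -0.34 and -0.48, and HLA-C was still not called.

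Of the regulators, 2 were lower and 1 was higher among 5 tested, counts too small to set against the 20.8% and 15.6% of all genes tested. NLRC5, the class I transactivator, reached 13.8 and 15.5 CPM in PC9 and 6.59 and 4.03 CPM in PC9OR cells, below PC9 in both libraries (log2 fold change -1.46, standard error 0.288, edgeR adjusted p = 0.0196). With offsets for length the log2 fold change of NLRC5 was -1.01 (edgeR adjusted p = 0.0441), and without PC9OR replicate 2 it was -1.14 (0.068). RFX5, RFXAP and RFXANK form the RFX complex that binds the X box of class I and class II promoters. RFXAP reached 5.89 and 4.58 CPM in PC9 and 2.06 and 2.50 CPM in PC9OR cells, and was lower (log2 fold change -1.20, standard error 0.294, edgeR adjusted p = 0.0330). RFXANK went the other way, with 33.7 and 40.4 CPM in PC9 and 75.0 and 70.6 CPM in PC9OR cells (log2 fold change 0.97, standard error 0.138, edgeR adjusted p = 0.0102). RFX5 stood at 74.5 and 78.5 CPM in PC9 and at 73.0 and 72.1 CPM in PC9OR cells and was not called (log2 fold change -0.08, edgeR adjusted p = 0.593). The 3 subunits of the same complex thus had 3 different calls. IRF1, an interferon-induced activator, reached 14.9 and 14.0 CPM in PC9 and 10.5 and 9.03 CPM in PC9OR cells and missed the threshold (log2 fold change -0.56, edgeR adjusted p = 0.0578, or 0.038 without PC9 replicate 2).

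The class II genes were at or near 0 in both lines. CIITA, the class II transactivator, had expected counts of 4 and 5 in PC9 and of 0 and 4 in PC9OR cells. HLA-DMB, HLA-DPB1 and HLA-DQB1 were at 0 in every library, and HLA-DRA, HLA-DRB1, HLA-DPA1 and HLA-DQA1 had at most 2 counts in any. Levels of these 7 genes and of CIITA could not be compared at this depth. HLA-DMA, a peptide exchange chaperone, reached 0.384 and 0.208 CPM in PC9 and 0.156 and 0.469 CPM in PC9OR cells and was not called (edgeR adjusted p = 0.931). CTSS, cathepsin S, a lysosomal protease that cleaves the invariant chain, was the class II gene that was called. It reached 3.50 and 2.98 CPM in PC9 and 0.687 and 0.719 CPM in PC9OR cells, 4.58-fold lower (log2 fold change -2.20, standard error 0.341, edgeR adjusted p = 0.0118). CTSS is also strong in macrophages. The 12 leukocyte markers summed to 7.74 and 5.97 FPKM in PC9 and to 3.20 and 2.94 FPKM in PC9OR cells, most of it CD68, while PTPRC, CD45 of all leukocytes, had at most 1 count and CD3E, MS4A1 and CD86 were at 0 in every library. Of the myeloid markers, CD68 was lower in PC9OR cells (log2 fold change -1.10, edgeR adjusted p = 0.0158). CD14, ITGAM and LYZ had at most 29 counts in any library, lay below PC9 in both PC9OR libraries and were not called (log2 fold changes -2.64, -1.58 and -1.25), and CSF1R lay above (0.82, edgeR adjusted p = 0.266). Their part in the result for CTSS was not tested.

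MICA and MICB are stress-induced ligands of NKG2D, the activating receptor of natural killer cells. MICB reached 50.8 and 47.9 CPM in PC9 and 33.7 and 31.6 CPM in PC9OR cells and was lower (log2 fold change -0.60, standard error 0.112, edgeR adjusted p = 0.0180). MICA reached 1.24 and 3.78 CPM in PC9 and 1.65 and 1.44 CPM in PC9OR cells. The PC9 replicates of MICA lay on either side of the PC9OR replicates, and it was not called (log2 fold change -0.70, edgeR adjusted p = 0.375). The log2 fold change of MICA was -1.29 without PC9 replicate 1 (edgeR adjusted p = 0.033) and 0.31 without PC9 replicate 2 (0.54), so its direction depended on the PC9 library used. Of the related ligands, ULBP1 was higher in PC9OR cells, at 0.341 and 0.312 CPM in PC9 and 1.09 and 1.25 CPM in PC9OR cells (log2 fold change 1.83, edgeR adjusted p = 0.0315). ULBP2 and ULBP3 had log2 fold changes of 0.98 and 0.47 and were not called (edgeR adjusted p = 0.0596 and 0.0838).

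The other genes of the pathway were taken from a list of 86, of which 72 were tested. Of these 19 were lower (26.4%) and 8 were higher (11.1%), near the 20.8% and 15.6% of all genes tested, and their median log2 fold change was 0.07. More than 2-fold lower were PSMB2, a constitutive proteasome subunit (log2 fold change -1.04), PSME4, the PA200 activator (-1.13), PROCR, a class I-like receptor of protein C (-1.22), and IFNAR2, a subunit of the type I interferon receptor (-1.82), at edgeR adjusted p of 0.00631, 0.00842, 0.0497 and 0.0116. More than 2-fold higher, beside ULBP1, were CTSH, the lysosomal protease cathepsin H, and MARCHF8, a ubiquitin ligase that removes class II molecules from the surface. The log2 fold change was 2.09 for CTSH (edgeR adjusted p = 0.00479) and 1.05 for MARCHF8 (edgeR adjusted p = 0.0239). By group, 6 of 14 genes of interferon receptors, signalling and its regulators were lower (42.9%) and 0 were higher. The lower ones were IFNGR1, IFNAR1, IFNAR2, JAK1, STAT3 and PTPN2, and their values with offsets for transcript length are not given here. Of 9 further chaperones and translocon genes, 4 were lower (44.4%), HSPA5, SEC61A1, P4HB and CALR (calreticulin). Their log2 fold changes were -0.98, -0.87, -0.74 and -0.52 (edgeR adjusted p = 0.00913, 0.00794, 0.0104 and 0.0199). Of 18 genes of the constitutive proteasome and its activators 3 were lower (16.7%) and 1 was higher (5.56%). Lower and higher were 4 and 2 of 7 peptidases, 0 and 3 of 11 further class II pathway genes and 0 and 1 of 4 further NKG2D ligands. Class I-like genes had 1 and 1 of 3, and 6 further regulators of transcription had 1 and 0. CD74, the invariant chain of class II molecules, had 2 counts in PC9 replicate 1 and 0 elsewhere.

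Compared per length, in FPKM, the levels of these genes spanned a wide range within each line. CANX and B2M stood highest. CANX was at 256.36 and 252.62 FPKM in PC9 and at 194.99 and 195.62 FPKM in PC9OR cells, and B2M was at 175.76 and 267.15 FPKM in PC9 and at 243.09 and 266.52 FPKM in PC9OR cells. In PC9 cells the order of the 2 genes differed between the replicates, and in PC9OR cells both libraries had B2M above CANX. CANX is 4950 bases long and B2M 987. Differences between the PC9 libraries and between the lines followed transcript length, so this order sets no difference between the lines. In all, 19 of the 36 genes reached at least 1 FPKM in every library and 4 were at 0 in every library.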

How the data were processed

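RNA from 2 PC9 and 2 PC9OR cultures was sequenced by the authors (TRIzol extraction, TruSeq Stranded libraries, HiSeq). The submitters' processing notes name Bowtie2 2.2.5, RSEM 1.2.12 and GRCh37, and the study's methods name SOAP for read filtering and DEGseq for the comparison. The authors deposited an expected count and an FPKM value for each gene of each library, with Entrez identifiers (symbols found for 99.66%). A gene missing from a file was given 0.

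Rounded expected counts entered the quasi-likelihood test of edgeR 4.0.16 in R 4.3.3 (TMM, filterByExpr, glmQLFit and glmQLFTest, Benjamini-Hochberg over 13148 genes), with the line as the only term. FPKM values served for ratios and for levels between genes. The standard error is the log2 fold change divided by the root of F. The test was checked on simulated data. The genes and lists were chosen with earlier results of these data known. Every one of the 36 genes is reported. Of the other pathway genes, those called at more than 2-fold and a listed set are named, except for a result that is not reported here. Positions come from GENCODE lifted to GRCh37. Alternatives were DESeq2 1.42.0, limma 3.58.1 on log2 FPKM, an MA-plot-based model, other filters, length offsets (mgcv 1.9.3), the replicate block and each library left out. The interval of the HLA-B ratio is an exact binomial one.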

Additional observations from a re-analysis of the deposited data

How the results depend on the processing

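PSMB8, TAPBP, TAPBPL and RFXANK were called in the same direction under all 16 alternatives, and no call of the 27 genes was reversed. Normalization by DESeq2 size factors or by library totals changed no call of the 27. Starting from 15 lower and 1 higher genes, DESeq2's Wald test gave 5 genes at the stricter threshold and 13 higher genes of the wider pathway. On pooled replicates the MA-plot-based model gave 5 higher genes, 7 at the stricter threshold, 34 higher and 34 lower pathway genes and 5762 higher and 5698 lower of all genes. limma on log2(FPKM + 1) left 3 genes more than 2-fold lower. Offsets for transcript length gave 1 gene at the stricter threshold, and also 1 together with at least 10 counts in every library, an alternative chosen after seeing the data. Same-numbered libraries deviated with a correlation of 0.0488, so the numbers were not taken as pairs. With the replicate block 2 genes were higher, 2 passed the stricter threshold and 14 pathway genes were higher. The block together with length offsets gave 3 genes at the stricter threshold and 3151 higher of all genes. Leaving out each library in turn gave between 4 and 16 lower genes, 1 and 5 higher genes, 4 and 8 more than 2-fold lower, 0 and 2 more than 2-fold higher, 2 and 27 higher and 4 and 25 lower pathway genes, and 525 to 3932 higher and 1177 to 3929 lower of all genes. With 1 PC9OR library left, that library was assumed to vary like PC9. The ratios of proteasome subunits kept their direction when computed from CPM or without any library. At 3 counts as the floor, genes near 0.1 CPM could not be compared.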
